A study of Mus musculus with 9 samples.

Results

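Claudins are membrane proteins that span the membrane several times and join neighbouring epithelial cells at the tight junction. Their extracellular loops pair across the gap between cells and either seal it or form pores for ions and water, and the cytoplasmic tails of most bind scaffold proteins such as ZO-1. E-cadherin, the product of Cdh1, holds epithelial cells together at the adherens junction just below. In human breast cancer, tumours with low CLDN3, CLDN4 and CLDN7 together with low CDH1 are known as claudin-low. The genes described are Cldn1, Cldn3, Cldn4, Cldn6, Cldn7, Cldn8, Cldn12 and Cldn23, taken by name. They are 8 of the 35 claudin genes, pseudogenes included, among the 51912 genes of the count table, and 7 of the 8 had enough counts to be tested.

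RNA sequencing was done on tumour organoids, small epithelial fragments taken from mammary tumours of FVB/NJ mice. The tumours arise because the MMTV promoter, active mainly in mammary epithelium, drives the polyoma middle T oncogene. The 5 E-cad-KO libraries came from organoids with the alleles Cdh1fl/fl, which Cre can delete, and the 4 WT libraries from organoids with Cdh1+/+. Both groups carried the oncogene, MMTV::PyMT, as well as (R26)pCA::mT/mG, a reporter whose colour changes after Cre acts. Both were also exposed overnight to an adenovirus carrying Cre recombinase, so the control organoids saw the virus as well. They were then grown for 48 h in collagen I with FGF2, frozen in the gel and extracted whole. The virus acts in whichever cells it enters, and cells that escaped it stay in the sample. The age of the mice is not given in the sources used here. The series' design text speaks of biological replicates, but the labels name no animals, so the p-values measure the spread between these libraries.

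The libraries held 44890302 to 64763645 counts, and levels are given in CPM, counts divided by the TMM-scaled library total, where 44.2 counts made 1 CPM at the lowest depth. Of 17289 genes tested with edgeR, 244 had an adjusted p under 0.05, which is 1.41%. Luminal epithelial markers summed to 5682 to 7200 CPM in E-cad-KO and 4622 to 6449 CPM in WT libraries, and 6 of 8 had a positive fold change, none of them called. Myoepithelial markers summed to 3472 to 7806 CPM in E-cad-KO and 2398 to 11472 CPM in WT libraries. Most of this sum was keratin. Krt14 had means of 4263 CPM in E-cad-KO and 5457 CPM in WT, and Krt5 of 600 and 1132 CPM. The contractile markers were lower, with Acta2 at means of 75.6 and 95.7 CPM and Myh11 at 2.28 and 3.27 CPM. Epithelial markers of both lists were thus present, but the myoepithelial sum speaks mainly for its keratins. Markers of other cells were lower: macrophage markers 287 to 374 CPM in E-cad-KO and 224 to 399 CPM in WT libraries, most of it Cd14, and fibroblast markers 128 to 217 and 65.3 to 345 CPM. Endothelial markers summed to 5.12 to 9.65 CPM in E-cad-KO and 6.15 to 18.5 CPM in WT libraries. Schwann cell markers summed to 126 to 155 CPM in E-cad-KO and 121 to 159.7 CPM in WT libraries. Lymphocyte markers (Cd3e at 0 in every library) and adipocyte markers stayed at or below 3.07 CPM. The libraries WT 3 and WT 4 stood apart, with the lowest luminal and the highest endothelial and fibroblast sums, so fold changes of the claudins are also given without them.

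The windows around the start of transcription of 4 claudin genes are shown because the results below turn on these genes: Cldn4 had the largest fold change, Cldn3 is its neighbour on the chromosome, Cldn7 had the smallest p, and Cldn1 is the gene whose ratio to Cldn4 separated the groups. Each runs 5′ to 3′ on the strand of the gene, from 250 bases before to 50 bases after the start, as RefSeq gives it for the build GRCm38.p6. Capitals mark matches to the motifs named in the next paragraph.
Cldn4 (chr5:134946885-134947184, minus strand): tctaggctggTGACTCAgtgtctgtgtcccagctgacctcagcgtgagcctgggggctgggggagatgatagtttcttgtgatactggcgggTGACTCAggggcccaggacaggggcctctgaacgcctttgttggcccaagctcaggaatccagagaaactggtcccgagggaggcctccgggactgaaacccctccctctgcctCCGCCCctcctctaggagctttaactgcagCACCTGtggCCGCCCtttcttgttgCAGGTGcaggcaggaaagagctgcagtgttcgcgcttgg
Cldn3 (chr5:134985964-134986263, plus strand): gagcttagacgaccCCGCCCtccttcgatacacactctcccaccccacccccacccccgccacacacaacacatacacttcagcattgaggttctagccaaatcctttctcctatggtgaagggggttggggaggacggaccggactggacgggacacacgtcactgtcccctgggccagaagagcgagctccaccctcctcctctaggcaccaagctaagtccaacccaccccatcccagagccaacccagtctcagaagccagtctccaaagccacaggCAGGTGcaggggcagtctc
Cldn7 (chr11:69964529-69964828, plus strand): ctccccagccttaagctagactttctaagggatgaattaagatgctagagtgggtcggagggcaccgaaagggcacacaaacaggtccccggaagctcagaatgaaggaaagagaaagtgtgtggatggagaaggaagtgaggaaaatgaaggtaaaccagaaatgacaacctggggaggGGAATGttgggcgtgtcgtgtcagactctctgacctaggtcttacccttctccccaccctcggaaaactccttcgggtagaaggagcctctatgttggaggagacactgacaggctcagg
Cldn1 (chr16:26371790-26372089, minus strand): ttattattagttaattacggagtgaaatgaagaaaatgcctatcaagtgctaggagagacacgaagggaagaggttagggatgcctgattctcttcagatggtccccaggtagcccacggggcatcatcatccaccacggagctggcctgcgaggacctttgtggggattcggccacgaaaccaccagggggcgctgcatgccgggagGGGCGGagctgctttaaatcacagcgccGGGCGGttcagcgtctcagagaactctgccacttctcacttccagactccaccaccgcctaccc

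The motifs were searched on both strands, and none of the matches in these windows overlapped another. The Cldn4 window held 2 AP-1 motifs (TGANTCA), 240 and 158 bases before the start, and 7.81% of the 32851 windows in the table held at least 1 and 0.46% held 2 or more. It also held 2 E-boxes of the kind that SNAI and ZEB factors recognise (CAGGTG, in 20.2% of all windows), 14 bases before and 11 bases after the start. A further pair of matches in it were to the KLF and SP motif (GGGCGG, in 35.7% of all windows). The Cldn3 window held 1 E-box, 31 bases after the start, and 1 KLF and SP motif. Cldn7 has 2 windows in the table, and the one shown held 1 TEAD motif (GGAATG, in 14.7% of all windows), 70 bases before the start. The other Cldn7 window (chr11:69965171-69965470), not shown, held 2 E-boxes, 97 and 57 bases before its start, and 1 KLF and SP motif. The Cldn1 window held 2 KLF and SP motifs, 42 and 14 bases before the start. The Grainyhead motif (AACCGGTT) matched in 0.146% of all windows, the TATA motif (TATAAA) in 13.6%, and neither in these 4. A window was given for 6 of the 8 genes, the other two being Cldn8 and Cldn23. A match says only that the letters are there.

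Cdh1, the targeted gene, had 86.5, 118, 85.2, 87.3 and 79.0 CPM in the E-cad-KO libraries, against 246, 150.3, 201 and 159 CPM in the WT libraries. Every E-cad-KO library lay below every WT library. In edgeR the difference on the log2 scale was -1.05 (SE 0.16, adjusted p = 0.0275), so Cdh1 fell to 0.482 of the WT level. In such bulk samples, fewer cells with a transcript and less of it per cell cannot be told apart.

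No claudin was called lower, a direction in which 87 of the 17289 genes tested were called. The edgeR test called 0 of the 7 claudins tested in either direction, where 1.41% of all tested genes were called. With so few genes at that share, 0 calls sets the claudins apart from other genes in no way. At an unadjusted p under 0.05 there were 4, Cldn3, Cldn4, Cldn7 and Cldn12, where 16.7% of all genes reached it. All of these were higher in E-cad-KO, a direction in which 8.74% of all genes reached it. Of the 7 tested genes, 5 had a positive log2 fold change and 2 a negative one, with a median of 0.39, beside a median of -0.0095 over all genes. The other tools placed the line differently, for all genes as well as for claudins. DESeq2 called Cldn4, Cldn7 and Cldn12, and over all 17289 genes it called 1206, where edgeR called 244. Of the claudins, limma-voom called Cldn7 only, and over all genes it called 509.

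**Figure D1:**
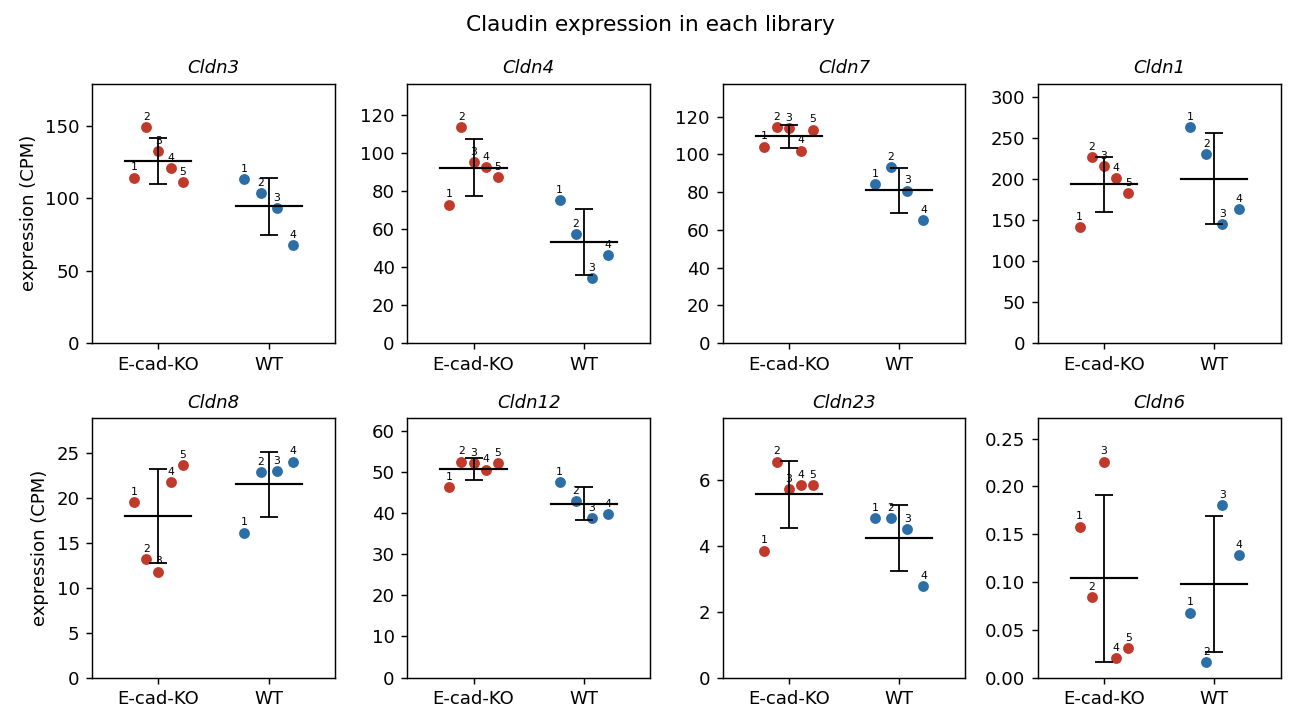
Expression of the 8 claudins in each library, in CPM on a linear axis from 0, with E-cad-KO on the left and WT on the right of each panel. Points are libraries with their replicate number, and the bars are the mean ± SD. In the Cldn7 panel alone every E-cad-KO library (102 to 115 CPM) lies above every WT library (65.1 to 93.4 CPM), while the Cldn1 and Cldn8 panels overlap widely.

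Cldn3 and Cldn4 tighten the tight junction and are the receptors of the Clostridium perfringens enterotoxin. Cldn4 (chr5:134945119-134946934, GRCm38, 1 exon) had 72.8, 114, 95.3, 92.6 and 87.2 CPM in the E-cad-KO libraries, against 75.0, 57.2, 34.1 and 46.2 CPM in the WT libraries. The 4 highest libraries were all E-cad-KO, and only E-cad-KO 1 overlapped the WT range, just below WT 1. Its mean was 92.3 ± 14.8 CPM in E-cad-KO and 53.1 ± 17.4 CPM in WT (SD, n = 5 and 4). This is a 1.74-fold difference, or 0.80 on the log2 scale (SE 0.21, 95% interval 0.32 to 1.28), and its edgeR adjusted p of 0.0981 missed the threshold. Without WT 3 and WT 4 the value was 0.48.

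Cldn3 (chr5:134986214-134987472, 1 exon) had 114, 149, 133, 121 and 111 CPM in the E-cad-KO libraries, against 113, 104, 93.2 and 67.7 CPM in the WT libraries. The groups met at their edges, with WT 1 above E-cad-KO 5, and WT 4 was the lowest of all. Cldn3 had a log2 fold change of 0.41 (SE 0.14, 95% interval 0.091 to 0.73) with an edgeR adjusted p of 0.185. Without WT 3 and WT 4 it was 0.21. The last bases of Cldn3 overlap exons of Wbscr25 on the other strand, a gene at 0.553 CPM in E-cad-KO and 0.510 CPM in WT.

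Cldn7, which binds the adhesion molecule EpCAM, gave the smallest p of the family. Cldn7 (chr11:69964779-69967885) had 104, 115, 114, 102 and 113 CPM in the E-cad-KO libraries, against 84.4, 93.4, 80.8 and 65.1 CPM in the WT libraries. Every E-cad-KO library lay above every WT library, and the E-cad-KO libraries lay close together. This was the only claudin of the 8 whose groups did not overlap, a pattern shared by 8.11% of all tested genes, and by 4.28% in this direction. The mean was 109.6 ± 6.0 CPM in E-cad-KO and 80.9 ± 11.8 CPM in WT (SD, n = 5 and 4). That is a log2 fold change of 0.44 (SE 0.094, 95% interval 0.23 to 0.65), a 1.35-fold difference. The edgeR adjusted p was 0.0511, just past the threshold, and 9 of 21 other ways of processing the counts put it under 0.05, with a range over the 21 of 0.000903 to 0.233. Leaving out WT 2 gave 0.0479 and WT 4 0.0393, while leaving out WT 1 gave 0.0768, WT 3 0.143 and single E-cad-KO libraries 0.0809 to 0.126. Without WT 3 and WT 4 the log2 fold change was 0.30.

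Cldn1, part of the water barrier of the skin and of many epithelia, was the claudin with the most counts, and its groups were mixed. Cldn1 (chr16:26356642-26371841) had 142, 227, 216, 201 and 183 CPM in the E-cad-KO libraries, against 264, 230.3, 145 and 163 CPM in the WT libraries. The highest library and the next highest were WT 1 and WT 2, the lowest was E-cad-KO 1, and the rest were mixed. Its log2 fold change was -0.051 (SE 0.19, 95% interval -0.49 to 0.38), with an edgeR adjusted p of 0.934. The interval leaves room for a difference in either direction, and leaving out single libraries moved the value between -0.18 and 0.11. Without WT 3 and WT 4 it was -0.35.

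Cldn12, an unusual claudin that lacks the tail motif for binding scaffolds, varied less than the others. Cldn12 (chr5:5489537-5514958) had 46.3, 52.5, 52.1, 50.5 and 52.0 CPM in the E-cad-KO libraries, against 47.6, 42.9, 38.8 and 39.7 CPM in the WT libraries. All E-cad-KO libraries but E-cad-KO 1 lay above the WT range. On the log2 scale Cldn12 differed by 0.26 (SE 0.071, 95% interval 0.11 to 0.42), with an edgeR adjusted p of 0.0942. Without WT 3 and WT 4 it was 0.16.

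Cldn8, which is known from the mouse and human kidney as a barrier claudin, leaned the other way. Cldn8 (chr16:88560828-88563183) had 19.5, 13.2, 11.8, 21.8 and 23.6 CPM in the E-cad-KO libraries, against 16.1, 22.9, 23.0 and 24.0 CPM in the WT libraries. The E-cad-KO libraries fell into low values in E-cad-KO 2 and E-cad-KO 3 and higher ones that reached into the WT range. The log2 fold change was -0.26 (SE 0.22, 95% interval -0.74 to 0.22), with an edgeR adjusted p of 0.606. It was -0.12 without WT 3 and WT 4.

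Cldn23 is among the less studied claudins. Cldn23 had 3.86, 6.57, 5.74, 5.86 and 5.86 CPM in the E-cad-KO libraries, against 4.86, 4.84, 4.53 and 2.77 CPM in the WT libraries. All E-cad-KO libraries but E-cad-KO 1 lay above the WT range, and WT 4 was the lowest. Its log2 fold change was 0.39 (SE 0.20, 95% interval -0.058 to 0.84), with an edgeR adjusted p of 0.367, and it was 0.20 without WT 3 and WT 4. Cldn23 lies on the chromosome of Cdh1, 70.8 Mb away. Cldn6, a claudin of embryonic epithelia, was nearly silent, with 9, 5, 10, 1 and 2 counts in the E-cad-KO libraries, against 4, 1, 11 and 7 counts in the WT libraries. It did not pass the filter and was not tested, and its groups overlapped throughout.

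**Figure D2:**
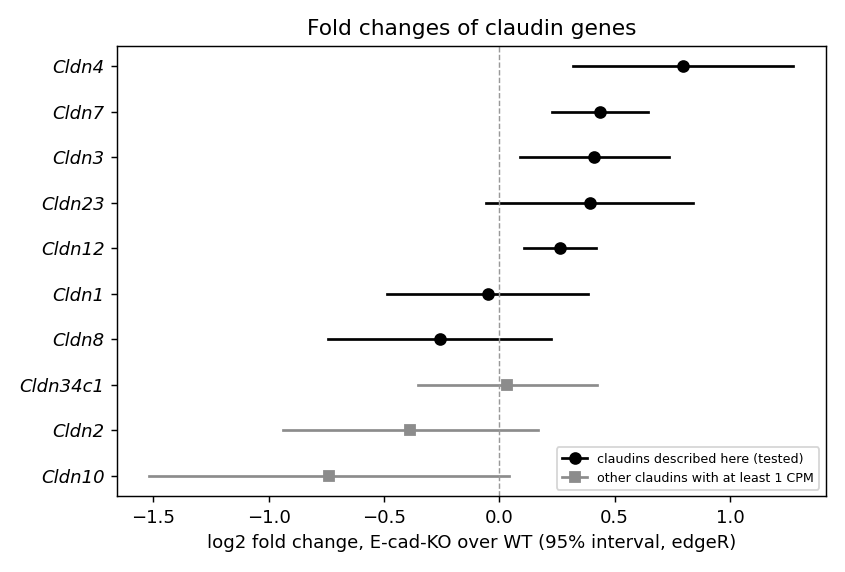
Log2 fold changes of E-cad-KO over WT with 95% intervals from edgeR, for the 7 tested claudins (black circles) and the other claudins with at least 1 CPM (grey squares). The intervals of Cldn4, Cldn7, Cldn3 and Cldn12 lie above 0, and those of the remaining genes include 0.

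The scale of these values depends partly on which genes are held constant. When libraries were scaled to level their luminal epithelial markers, the log2 fold changes were 0.60 for Cldn4, 0.23 for Cldn7, 0.21 for Cldn3, 0.18 for Cldn23, 0.040 for Cldn12, -0.25 for Cldn1 and -0.50 for Cldn8. The median of all genes then stood at -0.24. Relative to that median, Cldn4 stood at 0.84, Cldn7 at 0.47, Cldn3 at 0.45, Cldn23 at 0.42 and Cldn12 at 0.28, with Cldn1 at -0.012 and Cldn8 at -0.26. A scaling factor moves all genes of a library alike, so these relative values lie near the first ones by construction. The luminal sum was itself lowest in WT 4, which also had the lowest Cldn7 and Cldn3, and next lowest in WT 3, which had the lowest Cldn4. The part of luminal content in the claudin values was not tested.

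Levels of different claudins can be compared once counts are divided by transcript length, here the merged exons of each gene. Cldn3 was the most abundant in all 9 libraries, with 99.9 ± 12.4 CPM per kb in E-cad-KO and 75.1 ± 15.6 CPM per kb in WT (SD, n = 5 and 4). Cldn7 followed with 56.3 ± 3.08 CPM per kb in E-cad-KO and 41.5 ± 6.06 CPM per kb in WT. Cldn4 had 50.8 ± 8.15 CPM per kb in E-cad-KO and 29.3 ± 9.56 CPM per kb in WT. With this length, the E-cad-KO means of Cldn7 and Cldn4 differed by less than the SD of Cldn4. These 3 are the claudins named above for human claudin-low tumours. By mean level, Cldn3 ranked 1 and Cldn7 ranked 2 in both groups, while Cldn4 ranked 3 in E-cad-KO and 4 in WT. Such an order within a group does not bear on whether a tumour is claudin-low, which was not tested.

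Cldn1 had 40.0 ± 6.92 CPM per kb in E-cad-KO and 41.4 ± 11.6 CPM per kb in WT, so its level and that of Cldn7 in WT differed by less than their SDs. A step below came Cldn12, with 11.99 ± 0.613 CPM per kb in E-cad-KO and 9.997 ± 0.936 CPM per kb in WT. Cldn8 had 7.63 ± 2.23 CPM per kb in E-cad-KO and 9.13 ± 1.54 CPM per kb in WT, which in WT is within its SD of Cldn12. Cldn23 had 3.02 ± 0.549 CPM per kb in E-cad-KO and 2.30 ± 0.539 CPM per kb in WT, and Cldn6 was close to 0. The longest annotated transcript as the length gave the same order of these genes in each group, but not the same closeness. Cldn7 then had 82.1 CPM per kb in E-cad-KO, where Cldn4 had 50.8. In WT, Cldn7 had 60.6 CPM per kb and Cldn1 48.4, and Cldn12 had 11.3 and Cldn8 9.13.

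**Figure D3:**
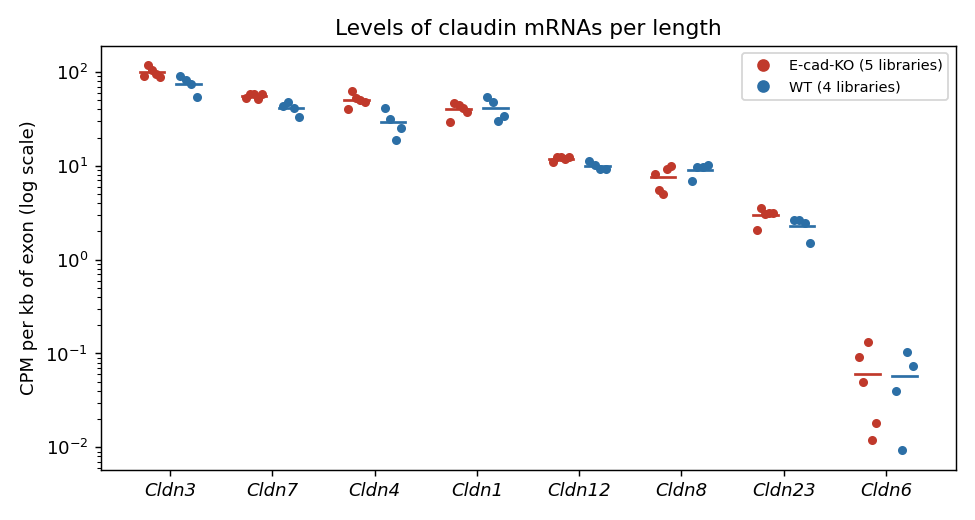
Claudin levels in CPM per kb of merged exons on a log axis, by gene, with E-cad-KO libraries at the left and WT libraries at the right of each gene, and a line at each group mean. Cldn3 is highest in all 9 libraries, and Cldn4 and Cldn1 change places between the groups.

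The order of Cldn4 and Cldn1 differed between the groups. Per kb, Cldn4 was above Cldn1 in 5 of 5 E-cad-KO libraries and in 0 of 4 WT libraries, with either choice of length. The ratio of Cldn4 to Cldn1 in CPM was 0.514, 0.501, 0.441, 0.461 and 0.477 in the E-cad-KO libraries, against 0.284, 0.249, 0.236 and 0.283 in the WT libraries. Every E-cad-KO library lay above every WT library, and the mean log2 ratio was -1.07 ± 0.089 in E-cad-KO and -1.93 ± 0.14 in WT (SD, n = 5 and 4), a 1.83-fold difference. Of the 21 pairs that the 7 tested claudins form, this was the only one whose ratio did not overlap between groups. Of single genes, 8.11% did not overlap, and no such share was computed for ratios of other genes. The pair was singled out after the values were seen, so it is given as a description with no test. A ratio within a library does not depend on how libraries are scaled.

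The same shift shows in the shares of the claudin pool, the sum of the 8 genes per kb, which was 269.7 ± 27.5 in E-cad-KO and 209 ± 38.6 in WT. Cldn1 made up 14.8 ± 1.37% of it in E-cad-KO and 19.6 ± 2.46% in WT (SD, n = 5 and 4). Cldn4 made up 18.8 ± 1.17% in E-cad-KO and 13.9 ± 2.76% in WT. These 2 shares, of 8, did not overlap between groups. They restate the ratio above, and the CPM of each gene did overlap. Cldn3 made up 37.0% in E-cad-KO and 35.9% in WT, and Cldn7 21.0% in E-cad-KO and 20.1% in WT.

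Cldn3 and Cldn4 are neighbours on chromosome 5, with a gap of 39.3 kb, and read in opposite directions. The log2 ratio of Cldn4 to Cldn3 was -0.65, -0.39, -0.48, -0.39 and -0.35 in the E-cad-KO libraries, against -0.60, -0.86, -1.45 and -0.55 in the WT libraries. E-cad-KO 1 lay below WT 1 and WT 4, so the groups overlapped, and WT 3 was far below the rest. The means differed by 0.41 (exact permutation test over the libraries, two-sided, p = 0.0317, where 126 arrangements allow no p below 0.00794). This pair was chosen with earlier results of these data known, so its p-value is not that of a contrast fixed beforehand. Without WT 3 the difference was 0.22 (exact permutation p = 0.0714), so the size rests largely on that library. Leaving out WT 2 or any one of E-cad-KO 2 to E-cad-KO 5 kept the difference between 0.39 and 0.42 but raised the exact permutation p to 0.0536 or 0.0857.

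**Figure D4:**
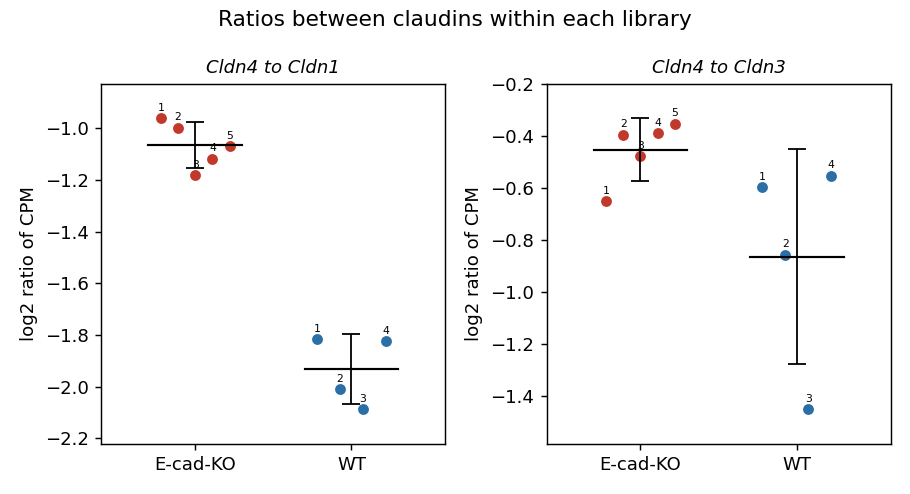
Log2 ratio of CPM within each library, of Cldn4 to Cldn1 on the left and of Cldn4 to Cldn3 on the right, with E-cad-KO before WT in each panel, points numbered by replicate and bars at the mean ± SD. The Cldn4 to Cldn1 ratios are separate between groups, while the Cldn4 to Cldn3 ratios overlap and WT 3 (-1.45) stands alone at the bottom.

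None of the genes around the claudins was called. Within 100 kb of 6 of the claudins, 43 gene entries were tested, counting Cldn3 and Cldn4 as neighbours of each other. The edgeR test called 0 of them, with 25 positive, where 1.41% of all genes were called and 48% were positive. With so few genes at that share, 0 calls sets the neighbours apart from other genes in no way. Mettl27, 2.5 kb from Cldn4, had a log2 fold change of -0.23 (edgeR adjusted p = 0.384). Abhd11, 21.7 kb from Cldn3, was at -0.079. Elp5, 0.3 kb from Cldn7, was at -0.087. The value nearest the threshold was that of Tnfrsf12a, the receptor of the cytokine TWEAK, 1.8 kb from Cldn6, at 0.41 (edgeR adjusted p = 0.0629). Every E-cad-KO library lay above every WT library for it, as for 4.28% of all genes.

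The other 27 claudin genes were mostly silent: 12 had no count in any library, 15 had some and 6 were tested. Of these 6, the edgeR test called 0 and 1 was positive, where 1.41% of all genes were called and 48% were positive. Among the 6, Cldn20 and Cldn9 had only 131 and 84 counts over all libraries, so their signs carry little. Of the 27, those with at least 1 CPM were Cldn2, Cldn10 and Cldn34c1. Cldn2, which forms pores for cations and water, had 30.6, 21.6, 20.7, 29.3 and 34.8 CPM in the E-cad-KO libraries, against 19.7, 35.3, 43.4 and 44.8 CPM in the WT libraries. The highest values were those of WT 2, WT 3 and WT 4, and WT 1 was the lowest of all. Cldn2 had a log2 fold change of -0.39 (SE 0.25, edgeR adjusted p = 0.480), and of -0.0056 without WT 3 and WT 4. Cldn10, also a pore-forming claudin, had 1.604 ± 0.756 CPM in E-cad-KO and 2.68 ± 0.752 CPM in WT, with a log2 fold change of -0.74 (SE 0.35, edgeR adjusted p = 0.327), and of -0.36 without WT 3 and WT 4. Cldn34c1 was at 0.035 (SE 0.17), and at -0.17 with luminal scaling, where the median of all genes was -0.24. It was -0.14 without WT 3 and WT 4.

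Cldn5, the claudin of blood vessels, did not pass the filter. It had 3, 1, 5, 2 and 5 counts in the E-cad-KO libraries, against 1, 21, 51 and 44 counts in the WT libraries. The high values were those of WT 2, WT 3 and WT 4, and WT 1 lay with the E-cad-KO libraries. Endothelial marker sums were highest in WT 3 and WT 4 as well, at 13.4 and 18.5 CPM, and 0 of 7 tested endothelial markers had a positive fold change. The part of endothelial cells in the Cldn5 counts was not tested.

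Genes for the partners of claudins were grouped in 6 lists, and the edgeR test called 0 genes in each, where 1.41% of all genes were called. Over all tested genes, 48% had a positive fold change, 16.7% an unadjusted p under 0.05, and 4.28% groups that did not overlap with E-cad-KO higher. Of 12 tight junction scaffolds and MARVEL proteins, 9 were positive, with a median log2 fold change of 0.12 and 3 at an unadjusted p under 0.05. These were Patj at 0.24, Mpdz at 0.32 and Tjp1, which encodes ZO-1, at 0.27. Of 8 other membrane proteins of tight junctions that were tested, 6 were positive, with a median of 0.16. Among them the tricellular junction genes Ildr1 and Lsr were at 0.29 (edgeR adjusted p = 0.0511) and 0.39 (edgeR adjusted p = 0.177), each with every E-cad-KO library above every WT library, and F11r, which encodes JAM-A, was at 0.17.

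Of 9 genes for membrane proteins that bind or process claudins, 8 were positive, with a median of 0.31 and 5 at an unadjusted p under 0.05. The protease matriptase, encoded by St14, was at 0.31, and its inhibitors Spint1 and Spint2 were at 0.35 each (edgeR adjusted p = 0.191 and 0.158). Of 10 kinases, ligases and other regulators, 7 were positive, with a median of 0.12. Prkci, an atypical protein kinase C of the polarity complex, was at 0.19, Prkca at 0.17 and Itch at 0.10.

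Of 14 epithelial regulators, transcription factors and the splicing regulators Esrp1 and Esrp2, 10 were positive, with a median of 0.097. Of these 14, 2 reached an unadjusted p under 0.05, a share near the 16.7% of all genes, so this count does not set them apart. Elf5, a factor of alveolar cells, was at -0.38 (edgeR adjusted p = 0.103) and Gata3, a luminal factor, at -0.21, both negative, while Klf5 was at 0.38. Of 6 factors of the epithelial-mesenchymal transition, which repress epithelial genes, 2 were positive, with a median of -0.15. Snai1, at 0.68 (edgeR adjusted p = 0.133), and Twist1, at 0.56 (edgeR adjusted p = 0.152), had every E-cad-KO library above every WT library, as did 4.28% of all genes, and Zeb1 was at -0.75 with an SE of 0.63. None of these values passed the test, and the list medians are set beside -0.0095 for all genes.

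**Figure D5:**
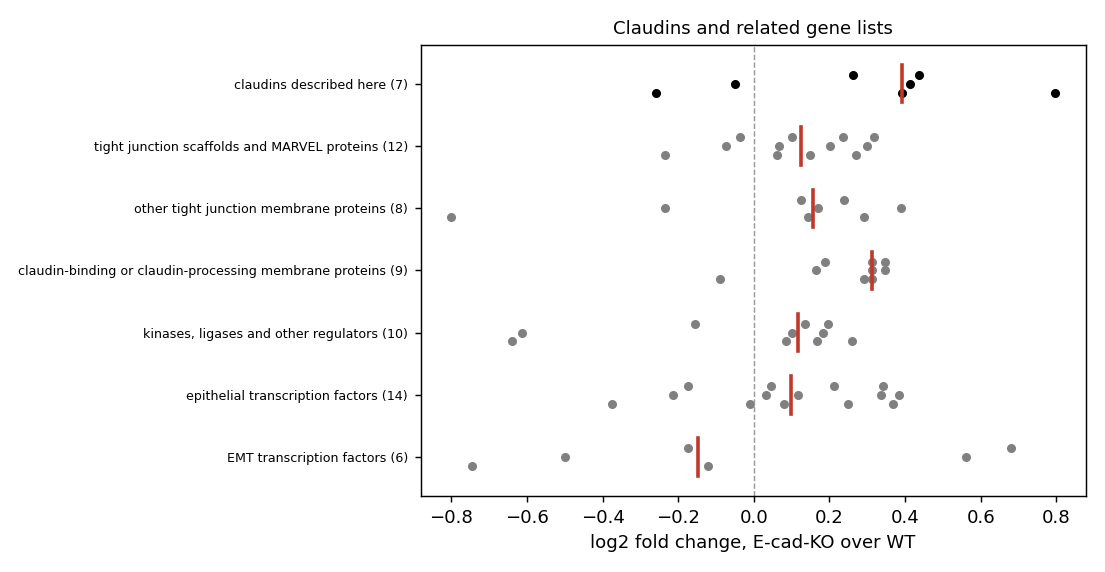
Log2 fold changes of E-cad-KO over WT for the tested genes of each list, with the number of genes in brackets and a red bar at the list median. The claudins (top row) have a median of 0.39, beside 0.31 for the claudin-binding or claudin-processing proteins and -0.15 for the EMT factors. The row of epithelial transcription factors includes the splicing regulators Esrp1 and Esrp2.

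Across the 9 libraries, the closest pair of claudins was Cldn3 and Cldn7, whose log2 CPM, each centred on its own mean, differed by a root mean square of 0.14. The farthest pair was Cldn4 and Cldn8, at 0.81. Among 10753 genes with a mean of at least 5 CPM, those near to Cldn3 included Ets1 (0.055) and Maff (0.079). Those nearest to Cldn7 were Rtn4 (0.047), Sox4 (0.070) and Sdc4 (0.078), of which Sox4 rose, with a log2 fold change of 0.43 (edgeR adjusted p = 0.0421). Cldn4 had no gene within 0.1, and the nearest were Padi4 (0.15), Slc45a3 (0.20) and Sema3f (0.21). Its own root mean square spread was larger, at 0.525, beside 0.307 for Cldn3 and 0.262 for Cldn7. Padi4 lay at 27.6% of the Cldn4 spread. For the nearest genes of the tested claudins this percent ran from 18% (Cldn3) to 37.5% (Cldn8).

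For Cldn1 the nearest were Slc6a14 (0.077), Sat1 (0.11) and Gdpd1 (0.11), for Cldn8 Slc26a7 (0.14), Klhl13 (0.15) and Kif2c (0.16), and for Cldn23 Tpm2 (0.13), Klhl38 (0.14) and Tmeff1 (0.14). Cldn12 varied so little that 211 genes lay within 0.1 of it, led by Cdv3 (0.042), Rras2 (0.050) and Hps6 (0.052). These distances are descriptions over 9 libraries that share their scaling and group structure.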

How the data were processed

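The authors deposited raw counts per gene for 9 libraries, and the submitters' processing notes name Bowtie2, TopHat2 and HTSeq with the GRCm38 build. Versions, settings, annotation and any use of strand were not given in the sources used here. Per the labels' protocols, libraries were made with a stranded mRNA kit. All value columns belonged to samples.

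The claudins, lists and tests were chosen with earlier results of these data known. Counts were tested with edgeR 4.0.16 in R 4.3.3 (TMM, filterByExpr, robust quasi-likelihood F-test, group as the only term, two-sided, Benjamini-Hochberg over all 17289 genes tested, calls at an adjusted p under 0.05). Standard errors were derived from the F statistic. DESeq2 1.42.0, limma 3.58.1, other scalings and filters, a macrophage covariate and left-out libraries were alternatives. WT 3 and WT 4 were left out together by a choice made after seeing the data. Libraries differed pairwise by more than sampling noise (smallest chi-square per degree of freedom 13.7).

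Exon lengths and positions came from GENCODE on GRCm38, and 51633 of 51912 genes had a symbol. Each of the 8 claudins was named, other claudins from a mean of 1 CPM, up to 3 genes a list by smallest p, neighbours within 100 kb, and the 3 nearest genes by root mean square distance, of which 1 for Cldn3 is not reported here. Cldn5, Cldn15, Tnfrsf12a, the Cldn4 to Cldn1 ratio and the low values shared by Cldn2 and Cldn8 were singled out after their values were seen. At these depths the tested claudins had 152 to 15540 counts a library.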

Additional observations from a re-analysis of the deposited data

Results flagged for a closer look

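In the WT group, 1 library stood far from the others for 2 claudins among 24 groups checked, and chance marks about 1 group in 20. Cldn8 had 16.1 CPM in WT 1, where the other WT libraries had 22.9 to 24.0 CPM. Without WT 1 its log2 fold change was -0.37, beside -0.26 with all libraries. Cldn23 had 2.77 CPM in WT 4, where the other WT libraries had 4.53 to 4.86 CPM. Without WT 4 its log2 fold change was 0.23, beside 0.39 with all libraries.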

How the results depend on the processing

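Of the 7 tested claudins, Cldn3, Cldn4, Cldn7, Cldn12 and Cldn23 kept a positive and Cldn8 a negative log2 fold change under all 21 alternatives, with ranges of 0.21 to 0.52, 0.48 to 1.02, 0.23 to 0.51, 0.040 to 0.33, 0.18 to 0.51 and -0.50 to -0.12. Cldn1 turned positive with limma-voom (0.018) and without WT 1 and WT 4 (0.049), was -0.35 without WT 3 and WT 4 and -0.25 with luminal scaling, and ranged from -0.18 to 0.11 with single libraries left out. Cldn34c1 turned negative with luminal scaling (-0.17) and without WT 3 and WT 4 (-0.14), and ranged from -0.11 to 0.13 with single libraries left out. The cause was not tested.

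The number of these claudins called, 0 in the report, was 1 with median-of-ratios factors, upper-quartile factors, no filter, a 1 CPM filter and limma-voom (Cldn7 each time), 3 with DESeq2 and 3 with the macrophage covariate (Cldn3, Cldn7 and Cldn12), and 0 to 1 with single libraries left out. Calls over all genes, 244 in the report, came to 251 with median-of-ratios factors and 274 with upper-quartile factors. They came to 213 of 29297 genes with no filter and 352 of 13719 genes with the 1 CPM filter. With luminal scaling there were 147, with DESeq2 1206, with limma-voom 509 and with the macrophage covariate 1122. There were 79 without WT 1 and WT 4, and 35 without WT 3 and WT 4. With single libraries left out, there were 9 (without WT 3) to 334 (without WT 4).

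The difference in the Cldn4 to Cldn3 ratio ran from 0.22 to 0.52 with single libraries left out (exact permutation p 0.0286 to 0.0857), was 0.70 without WT 1 and WT 4 (exact permutation p = 0.0476) and was 0.27 without WT 3 and WT 4 (exact permutation p = 0.0952). Replicate numbers gave no clear pairing of the libraries: same-numbered deviations correlated at -0.32, 0.24, -0.030 and 0.28, and 1 of 4 WT libraries correlated best with its own number. So few values cannot settle whether same-numbered libraries belong together. With the replicate block, 0 genes and 0 claudins were called, and the ratio differed by 0.39 (exact permutation p = 0.25). The same-numbered pairs allow few arrangements, so that p could not be small. For Cldn6, with 1 to 11 counts a library, a difference was not detectable at this depth.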

Other observations

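Cldn2 and Cldn8 were low in the same libraries. The 3 lowest Cldn8 values were those of E-cad-KO 2, E-cad-KO 3 and WT 1, at 13.2, 11.8 and 16.1 CPM, and the 3 lowest Cldn2 values were theirs too, at 21.6, 20.7 and 19.7 CPM. These libraries had myoepithelial marker sums, mostly Krt14 and Krt5, of 6457, 7806 and 11472 CPM, among the 4 highest. By contrast, WT 2 had a sum of 7998 CPM and a Cldn8 level of 22.9 CPM. The part of myoepithelial content in these values was not tested.

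Of the rare claudins, Cldn15 had 24, 20, 18, 32 and 25 counts in the E-cad-KO libraries, against 17, 19, 33 and 81 counts in the WT libraries. WT 4 was the only library far above the rest, and it also had the highest endothelial and lymphocyte marker sums, at 18.5 and 3.07 CPM. Of the lymphocyte markers, Ptprc had the highest WT mean, at 0.897 CPM, and it was the only one tested. The fibroblast, Schwann cell and adipocyte sums were highest in WT 4 as well, at 345, 159.7 and 2.37 CPM. Its macrophage sum was the lowest because Cd14 was, while every other macrophage marker was highest there, such as C1qc at 9.24 CPM. The part of any of these cells in the Cldn15 counts was not tested.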
